A study of Mus musculus with 4 samples.

Results

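Kinesins are motor proteins that use ATP to move along microtubules or to shorten their ends. One branch of the family builds the spindle, moves chromosomes and completes cell division, and its transcripts accumulate late in the cell cycle and are low in cells that have left it. Another branch carries organelles, vesicles and ciliary cargo in resting as well as dividing cells; in muscle fibres the conventional kinesin heavy chain Kif5b is known for spacing the nuclei along the fibre. The kinesin family was taken as every non-control probe whose gene name in the scanner files begins with Kif and a digit. That rule found 71 of 41174 probes, which belong to 33 of 27597 named genes and unnamed features. It leaves out kinesins with other names, such as the minus-end motors of the Kifc group.

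The cells were C2C12 mouse myoblasts, a line that fuses into myotubes when serum is lowered, and both groups had been differentiated for 6 days. GDF8 cells received 20 nM recombinant mouse myostatin every 24 h, and untreated cells received nothing. Each of 4 two-colour arrays compared 1 GDF8 with 1 untreated RNA; GDF8 was in Cy3 on replicates 1 and 4 and in Cy5 on replicates 2 and 3. The labels number the arrays as biological replicates, and mark replicates 1 and 4 as dye swaps without naming an array that they swap. They do not say whether the cultures were separate or whether arrays share RNA, so the 4 arrays may stand for fewer samples and p-values may measure only technical spread. They also disagree on the horse serum of the medium (2% or 10%).

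All 8 skeletal muscle markers examined, among them Des, Myog and Myh3, were well above background in all 8 channels. The blood and endothelial markers Ptprc and Pecam1 were well above background in 0 of 8 channels. Cdh5, on the same list, was so in 1 channel and Hba-a1 in all 8. Some markers of other cell types were also well above background in all 8 channels. They were 2 of 4 for fat, 4 of 6 for bone and cartilage, 2 of 5 for neurons and glia and 2 of 3 for smooth muscle. Of 17594 features tested, 553 (3.14%) differed, 150 (0.853%) being higher and 403 (2.29%) lower after GDF8, at an adjusted p under 0.05 in limma. The share of spots saturated in red was 9.2% to 12.1% and in green 0.745% to 5.49%. A probe saturated in both channels of an array has no free ratio: over 267 to 2101 such probes per array, the median log2 ratio was 0.23, -0.31, -0.26 and 0.81 on replicates 1 to 4.

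After differentiation with GDF8, 6 of 9 mitotic kinesins were higher than in untreated cells and 0 were lower, while 0 of 14 transport kinesins passed the test in either direction. Across the 29 kinesin genes measured, 7 were higher, against 0.853% of all features tested, and 0 were lower, against 2.29%. At an unadjusted p under 0.05 in limma, 7 mitotic kinesins were higher and 0 lower, 2 transport kinesins were higher and 0 lower, and 10 kinesins in all were higher and 1 lower, against 12.4% of all features in either direction, 5.31% higher and 7.12% lower. The 1 lower was Kif26a, which passed the filter on dim signals through the untreated channels alone; with all 8 channels required, 0 were lower. Of the 11 transport kinesins whose probe was never saturated, 0 were called. By the methods' t-test with a fold over 1.6, 3 mitotic and 0 transport kinesins were called higher and 0 of either lower, against 1.99% of features called in either direction, 0.396% higher and 1.6% lower. The median log2 ratio of GDF8 over untreated was 0.66 for mitotic kinesins, 0.03 for transport kinesins and 0.01 for all features. On replicates 1 to 4 the mitotic median was 0.62, 0.87, 0.38 and 0.62, against -0.04, 0.22, 0.06 and -0.25 for transport kinesins, so that the mitotic median was the higher on each array. The difference between these medians was 0.66, 0.65, 0.32 and 0.87. Values of single arrays are not corrected for the dye effect of each probe. The transport medians were the lower on replicates 1 and 4, where GDF8 was in Cy3. In bulk RNA a larger number of dividing cells and more transcript per cell cannot be told apart.

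**Figure D1:**
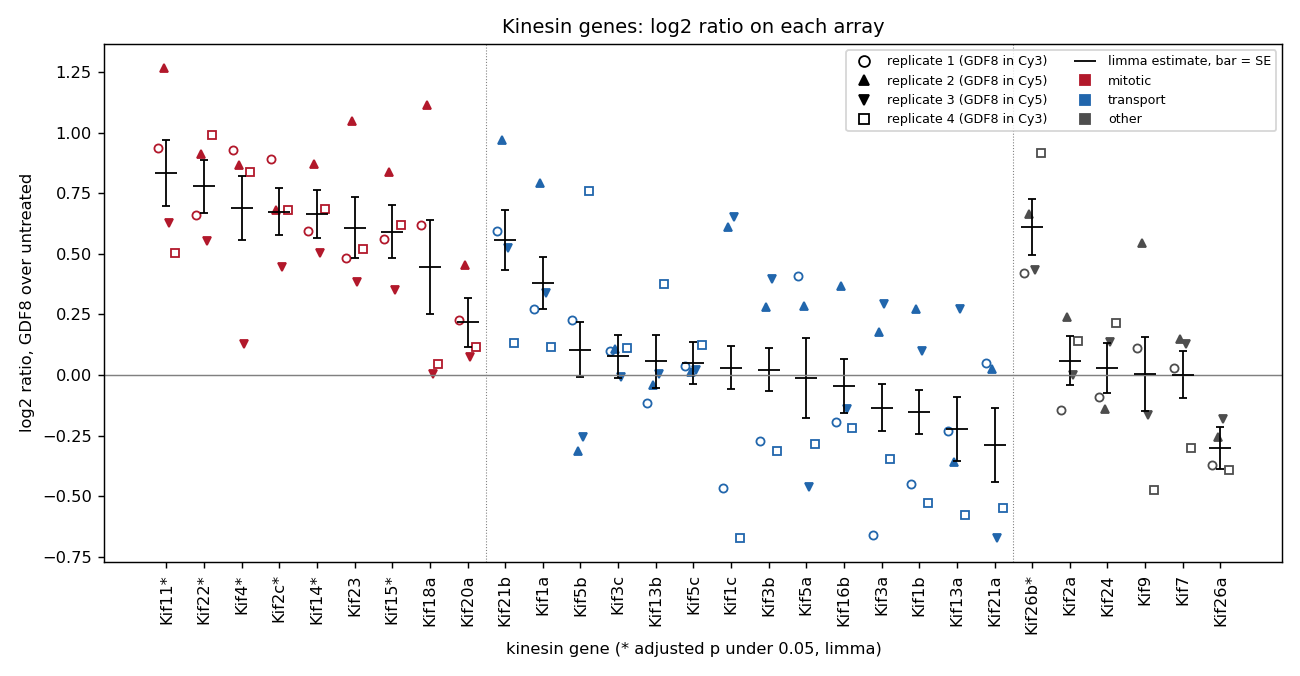
Log2 ratio of GDF8 over untreated (vertical axis) for the 29 measured kinesin genes, with 1 symbol per array, filled where GDF8 was in Cy5 and open where it was in Cy3; the dash and bar are limma's estimate and standard error. All 9 mitotic genes on the left lie above 0 on all 4 arrays, and the 14 transport genes lie on both sides of 0.

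The promoters are shown because their sequence was not used to choose the members; the counts of matches are descriptions and were not tested. The cell cycle genes homology region (CHR) is a short element bound by the MuvB protein core, which represses late cell cycle genes in resting cells and activates them in dividing cells together with B-Myb and FoxM1. It often lies near a box bound by NF-Y, and E2F sites mark genes of the start of DNA synthesis. RefSeq promoters of build GRCm38.p6, 250 bases before to 50 after a gene's start, were searched for 28 of the 33 genes. Promoters on chromosome 18 were left out of the kinesin search by rule, which removed Kif5b and Kif20a. Kif5a, Kif13b and Kif21b were not matched. The shares over all promoters were taken without that exclusion. Both strands were searched for CHR as TTTGAA or TTTAAA, for the NF-Y box as CCAAT, and for E2F as TTTGGCGC, TTTCCCGC, TTCCCGCC or TTGGCGCC, some of which overlap each other.

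A CHR match was found in 7 of 8 mitotic kinesin genes (87.5%) and in 1 of 11 transport kinesin genes (9.1%), against 27.6% of all 32851 promoters of that length. The transport gene was Kif1a, in 1 of its 2 promoters. The NF-Y box was matched in 5 of 8 mitotic genes (62.5%) and 3 of 11 transport genes (27.3%), against 37.4% of all promoters. E2F was matched in 2 of 8 mitotic genes and 0 of 11 transport genes, against 3.8%. All 7 kinesin genes called higher held a CHR match, as did 2 of the 17 measured genes with a promoter that were not called, which were Kif23 and Kif1a. For TTTGAA alone the counts were 7 of 8 mitotic and 1 of 11 transport genes, against 17.9% of all promoters. Between 60 bases before and 30 bases after the start, CHR was matched in 6 of 8 mitotic genes (75%) and 1 of 11 transport genes (9.1%), against 7.9% of all promoters. There TTTGAA alone was matched in 5 of 8 and 1 of 11, against 4.6%, since Kif14 held only TTTAAA in that window. That window was chosen after the places of the matches were seen. A match in the sequence says nothing about whether a factor bound there, and members were too few and too selected for a test.

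The 90 bases of that window are given for the mitotic kinesins whose matches fall within it, for Kif18a, the mitotic kinesin without a CHR match, for Kif26b, which rose outside the mitotic group, and for the conventional kinesin Kif5c as a transport example. They run 5′ to 3′ on the strand of the gene; capitals mark the matches, which read TTCAAA and ATTGG where CHR and the NF-Y box lie on the opposite strand.
Kif11, chr19:37376322-37376411, + strand: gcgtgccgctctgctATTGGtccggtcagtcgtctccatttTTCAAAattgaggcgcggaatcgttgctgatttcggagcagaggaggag
Kif22, chr7:127042391-127042480, - strand: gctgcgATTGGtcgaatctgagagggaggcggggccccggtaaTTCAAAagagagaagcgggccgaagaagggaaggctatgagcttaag
Kif4, chrX:100626005-100626094, + strand: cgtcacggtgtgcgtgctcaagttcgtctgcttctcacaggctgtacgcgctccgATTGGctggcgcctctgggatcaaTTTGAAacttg
Kif23, chr9:61946770-61946859, - strand: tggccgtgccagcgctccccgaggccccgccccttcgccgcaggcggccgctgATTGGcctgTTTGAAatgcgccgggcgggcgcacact
Kif15, chr9:122951021-122951110, + strand: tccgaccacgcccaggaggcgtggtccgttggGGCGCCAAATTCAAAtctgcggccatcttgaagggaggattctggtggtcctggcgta
Kif14, chr1:136467788-136467877, + strand: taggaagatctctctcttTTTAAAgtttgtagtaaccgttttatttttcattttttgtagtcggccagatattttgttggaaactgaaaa
Kif18a, chr2:109280678-109280767, + strand: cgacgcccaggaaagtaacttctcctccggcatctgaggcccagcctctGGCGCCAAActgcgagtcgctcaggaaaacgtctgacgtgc
Kif26b, chr1:178529065-178529154, + strand: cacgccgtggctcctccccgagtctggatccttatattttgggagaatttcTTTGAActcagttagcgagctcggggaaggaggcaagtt
Kif5c, chr2:49619226-49619315, + strand: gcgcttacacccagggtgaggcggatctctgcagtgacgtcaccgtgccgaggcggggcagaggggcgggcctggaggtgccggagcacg

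In Kif11, Kif22, Kif4 and Kif23 an NF-Y box stood upstream of the CHR match, with the CHR match starting at -19, -17, 20 and 3 relative to the gene start. Kif14 had the same order, with the box at -92, outside the window shown, and CHR matches at -42 and, farther upstream, -228. Outside the mitotic group, Kif26b (box at -73, outside its window, and CHR at -9) and the untested Kif27 (-222 and -191) had that order too. In Kif15 the E2F match ended at -20 and the CHR match began at -19, so that the elements abutted, as the run GGCGCCAAATTCAAA shows. Kif18a held the same E2F letters without CHR. The matches of Kif2c lay farther out, at -234 and -103. Kif5c, the transport example, held no match in its window. Among transport kinesins whose windows are not shown, Kif1a held a CHR match in 1 promoter and Kif3a held an NF-Y box.

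**Figure D2:**
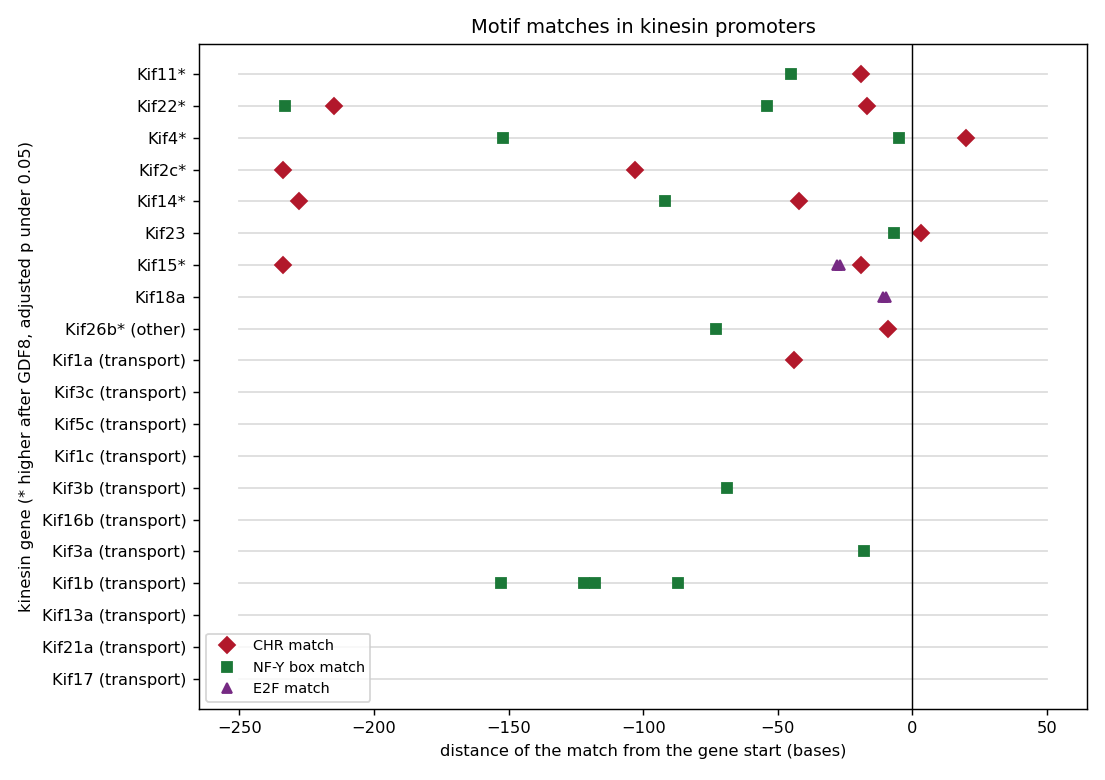
Places of motif matches (horizontal axis, bases from the gene start) in the promoters of mitotic and transport kinesin genes and of Kif26b, 1 line per gene; an asterisk marks genes called higher after GDF8. CHR matches (diamonds) appear on 7 of the 8 mitotic lines and on 1 of the 11 transport lines.

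The motors that hold the spindle poles apart were both higher. Kif11, the kinesin-5 motor that slides spindle microtubules apart, had normalised intensities of 1708, 1812, 1730 and 1351 in the GDF8 channels of replicates 1 to 4, against 892, 752, 1121 and 954 in the untreated channels. The groups did not overlap, and the log2 ratios were 0.94, 1.27, 0.63 and 0.50. The fitted log2 ratio was 0.83 ± 0.14 (SE, n = 4 arrays), or 1.78-fold, with limma's adjusted p = 0.030. A second Kif11 probe gave 0.54 and did not pass when every probe was tested on its own (adjusted p = 0.066). Kif15, the kinesin-12 motor that shares this task with Kif11, had intensities of 4177, 3288, 3045 and 2679 in GDF8 channels, against 2834, 1839, 2391 and 1744 in untreated channels. The groups overlapped, while the log2 ratios within arrays, 0.56, 0.84, 0.35 and 0.62, were all positive. Its fitted log2 ratio was 0.59 ± 0.11, or 1.51-fold (limma's adjusted p = 0.044). A dimmer Kif15 probe gave 0.82, -0.23, -0.34 and 1.08, with a sign that followed the dye orientation, and a fitted 0.33 that did not pass (adjusted p = 0.18).

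Both chromosome-bound motors were higher. Kif22, which pushes chromosome arms toward the spindle equator, had intensities of 32038, 30812, 27144 and 22386 in the GDF8 channels, against 20274, 16377, 18528 and 11263 in the untreated channels. Every GDF8 channel lay above every untreated one. Its log2 ratios of 0.66, 0.91, 0.55 and 0.99 gave a fitted 0.78 ± 0.11, or 1.72-fold (limma's adjusted p = 0.018). Kif4, which condenses chromosomes and limits microtubule length at the central spindle, gave 0.93, 0.86, 0.13 and 0.84. Its ratio on replicate 3 stood apart from the others, yet all 4 GDF8 intensities (8868 to 10546) lay above all 4 untreated intensities (5107 to 8109). The fitted log2 ratio was 0.69 ± 0.13, or 1.61-fold, just inside the threshold (limma's adjusted p = 0.0497), and a second Kif4 probe gave 0.67 (adjusted p = 0.047 with every probe on its own).

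The motors that act at microtubule ends did not all pass. Kif2c, the kinesin-13 that shortens microtubules at centromeres to release wrong attachments, had intensities of 1766, 1671, 1598 and 1615 in GDF8 channels, against 952, 1041, 1175 and 1009 in untreated channels. These groups were well apart, and the log2 ratio was 0.67 ± 0.10, or 1.60-fold (limma's adjusted p = 0.019). Kif18a, the kinesin-8 that damps chromosome movements at the equator, gave 0.62, 1.11, 0.0037 and 0.04. It was thus high on replicates 1 and 2 and close to 0 on replicates 3 and 4, and its fitted 0.45 ± 0.19 did not pass (limma's adjusted p = 0.43). The 95% interval of that log2 ratio ran from -0.02 to 0.91.

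Among the motors of the central spindle and cytokinesis, Kif14, which works with citron kinase at the midbody, was higher. Its intensities were 2359, 2466, 2242 and 2136 in GDF8 channels, against 1564, 1347, 1581 and 1328 in untreated channels, without overlap. The log2 ratio was 0.66 ± 0.10, or 1.58-fold (limma's adjusted p = 0.023), and a dimmer Kif14 probe was well above background in 0 of 8 channels. Kif23, the motor subunit of centralspindlin, gave 0.48, 1.05, 0.38 and 0.52, with a fitted 0.61 ± 0.13 that missed the threshold (limma's adjusted p = 0.063). Its second probe, at 0.67, 0.94, 0.56 and 0.61, gave 0.70 and passed with every probe on its own (adjusted p = 0.018).

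Kif20a, which brings the chromosomal passenger complex to the central spindle, differed between its probes. The brighter one was saturated in 3 GDF8 channels and 1 untreated channel and gave 0.23, 0.45, 0.07 and 0.12, with a fitted 0.22 ± 0.10 that did not pass (limma's adjusted p = 0.48). The other was saturated in 1 GDF8 channel and gave 0.51, 1.18, 0.60 and 0.62, with a fitted 0.73 that passed with every probe on its own (adjusted p = 0.026). Of 13 mitotic probes well above background in all 8 channels, 13 had a positive ratio, 9 were called higher and 0 lower, against 2.73% of all probes called in either direction, 0.774% higher and 1.95% lower. Those shares cover all probes that passed the filter on dim signals, which is looser than requiring all 8 channels. Of 30 transport probes well above background in all 8 channels, 16 were positive, 14 were negative and 0 were called. Among all features tested, 9192 of 17594 had a positive ratio. Of the 5 other mitotic probes, the dimmer Kif15 probe described above passed the filter through its GDF8 channels alone, and 4 did not pass.

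**Figure D3:**
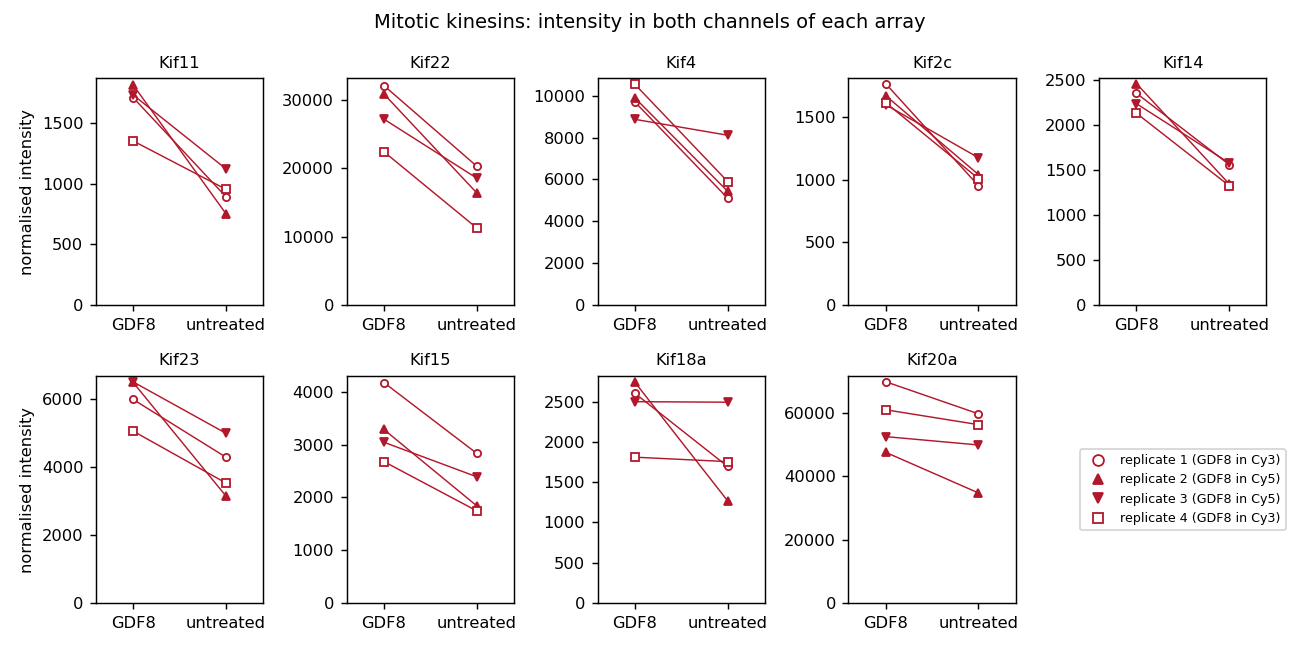
Normalised intensity (vertical axes, linear, from 0) of the 9 mitotic kinesins in the GDF8 and untreated channels, with a line joining the channels of 1 array. All lines fall toward the untreated side; those of Kif18a on replicates 3 and 4, of Kif4 on replicate 3 and of Kif20a are among the flattest.

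Kinesins that the array lists under other names lay outside the rule. Kif20b, a cytokinesis motor named Mphosph1 in the files, gave 0.48 by its brightest probe without passing (limma's adjusted p = 0.22), and 0.77 and 0.75 by the others, which both passed with every probe on its own (adjusted p = 0.026 and 0.024). Kif18b, a kinesin-8 that shortens astral microtubules, gave 0.52, 1.03, 0.95 and 0.75, with a fitted 0.81 ± 0.09, or 1.76-fold (limma's adjusted p = 0.013). Of the 4 Kifc genes, Kifc1, the minus-end motor that focuses spindle poles, gave 0.77 ± 0.12 (limma's adjusted p = 0.026) and Kifc5b gave 0.69 ± 0.12 (limma's adjusted p = 0.037). Kifc1 and Kifc5b are near-identical copies, so which of them rose is uncertain, and Kifc2 and Kifc3 did not pass.

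No transport kinesin passed, and their log2 ratios ran from -0.29 to 0.56. Kif21b, a kinesin-4 known for limiting microtubule growth in neurons and lymphocytes, came nearest, with 0.60, 0.97, 0.52 and 0.13. Its fitted 0.56 ± 0.12 (1.47-fold, limma's adjusted p = 0.081) had a 95% interval from 0.26 to 0.85, and a second probe gave 0.31. Kif1a, a carrier of synaptic vesicle precursors, gave 0.27, 0.79, 0.34 and 0.12 and a fitted 0.38 ± 0.11 (limma's adjusted p = 0.17).

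Kinesin-1 heavy chains stood near 0. Both channels of the brightest Kif5b probe were near the scanner's ceiling (3 GDF8 and 4 untreated channels saturated), with ratios of 0.23, -0.31, -0.26 and 0.76, which follow those of probes saturated in both channels, so no ratio is drawn from it. Its unsaturated probe gave -0.14, 0.04, 0.23 and -0.12, with a fitted 0.0021. Kif5c gave 0.04, 0.01, 0.02 and 0.12, with a fitted 0.05 ± 0.09 and a 95% interval from -0.16 to 0.26. Kif5a gave 0.41, 0.28, -0.46 and -0.29, with a wider interval from -0.41 to 0.38.

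The kinesin-2 motors of cilia and membrane transport showed no common direction. Kif3a gave -0.66, 0.18, 0.29 and -0.35, negative where GDF8 was in Cy3 and positive where it was in Cy5, with a fitted -0.13 ± 0.10. Its partner Kif3b gave a fitted 0.02 ± 0.09. Kif3c gave 0.10, 0.11, -0.0094 and 0.11, with a fitted 0.08 ± 0.09. Kif17 was well above background in 0 of 8 channels with each of its 3 probes and was not tested. Among kinesin-3 carriers of vesicles and organelles, Kif1b gave -0.45, 0.27, 0.10 and -0.53, again split by dye, with a fitted -0.15 ± 0.09. That Kif1b probe was saturated in 1 GDF8 channel. Kif13a gave -0.23, -0.36, 0.27 and -0.58, with a fitted -0.22 ± 0.13. Neither passed, and Kif16b (-0.05 ± 0.11), Kif13b (0.06 ± 0.11) and Kif1c (0.03 ± 0.09) did not pass either. Kif1c was -0.47 and -0.67 where GDF8 was in Cy3 and 0.61 and 0.65 where it was in Cy5. The fit estimated a dye effect of 0.60 for that probe and removed it. The probe was saturated in 1 GDF8 channel. A second bright Kif1c probe, never saturated, had a dye effect of 0.40. A probe of Kif1b gave -0.37 with an adjusted p of 0.15, the lowest transport ratio of any probe. Kif21a (-0.29 ± 0.15) was split by replicate rather than by dye, at 0.05 and 0.02 on replicates 1 and 2 and at -0.67 and -0.55 on replicates 3 and 4.

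**Figure D4:**
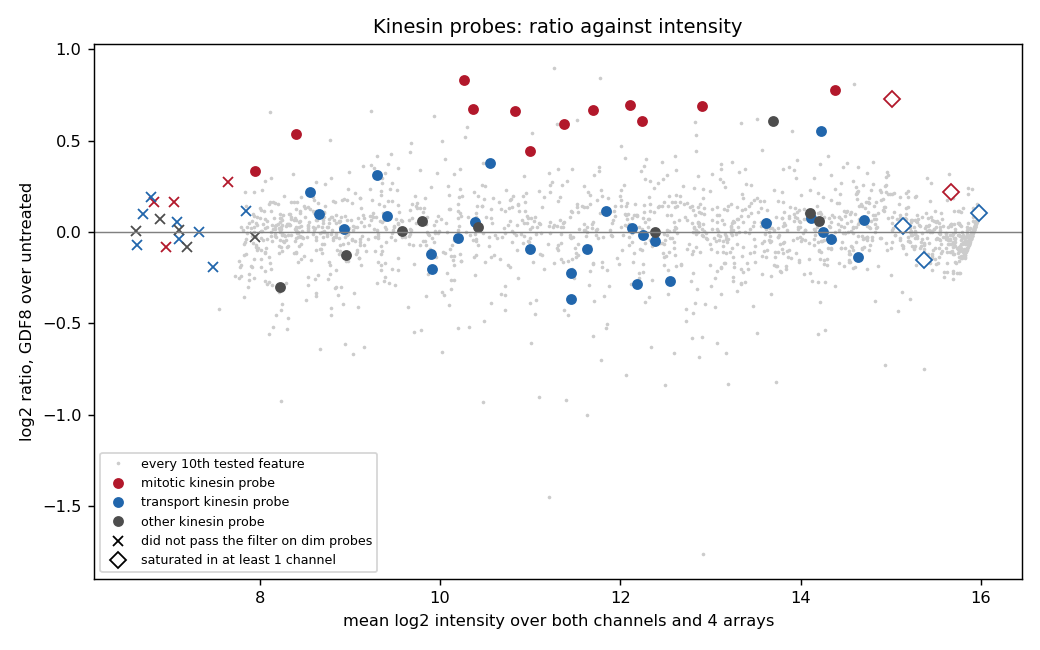
Log2 ratio of GDF8 over untreated (vertical axis) against mean log2 intensity (horizontal axis) for kinesin probes with a fitted value, over every 10th tested feature in grey; crosses did not pass the filter on dim probes and open diamonds were saturated in at least 1 channel. The 14 mitotic probes that passed run from 0.22 to 0.83 across the intensity range, and the 30 transport probes from -0.37 to 0.56.

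Outside both groups, Kif26b alone was called. This atypical kinesin, which lacks the usual motor activity and acts in Wnt5a and Ror signalling, had intensities of 12955, 17155, 16793 and 19218 in GDF8 channels, against 9672, 10817, 12425 and 10177 in untreated channels. The groups did not overlap, and the log2 ratio was 0.61 ± 0.11, or 1.53-fold (limma's adjusted p = 0.045). A probe that RefSeq's synonyms assign to the same gene, under an older name in the files, gave 0.24, -0.06, -0.10 and 0.31 and did not pass (0.10, adjusted p = 0.84). Its relative Kif26a, an inhibitor of signalling by growth factor receptors in gut neurons, gave -0.37, -0.26, -0.18 and -0.39, negative on all 4 arrays, but was well above background in 3 of 4 GDF8 channels and did not pass (-0.30 ± 0.09, limma's adjusted p = 0.18).

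The depolymerising kinesin-13 Kif2a gave -0.14, 0.24, 0.00 and 0.14, with a fitted 0.06 ± 0.10. The centriolar Kif24 (0.03 ± 0.10), the Hedgehog pathway and cilium tip kinesin Kif7 (0.0015 ± 0.10) and the ciliary Kif9 (0.0044 ± 0.15) lay near 0 as well. Kif2b, Kif12 and Kif27 were not tested. Kif2b was well above background in 0 of 8 channels, Kif27 in 2 of 8 with its brighter probe, and the bright probe of Kif12 was flagged as an outlier on 2 arrays. All 9 mitotic kinesins had a positive ratio on all 4 arrays, as did 3 of 14 transport kinesins, against 6.74% of all features; 0 of either had 4 negative ratios, against 8.15% of all features.

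The count of called mitotic kinesins depended on single arrays. It was 1, 0, 7 and 0 without replicates 1, 2, 3 and 4, and the count of all features higher was 95, 12, 109 and 8. In these 4 fits 7, 7, 8 and 8 of the 9 were higher at an unadjusted p under 0.05, against 8.9%, 3.09%, 3.64% and 4.53% of all features. The mitotic median was 0.62, 0.51, 0.76 and 0.64. Averaging replicates 1 and 2 and replicates 3 and 4 left 1 mitotic kinesin called.

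Some partners of the mitotic motors were higher too, in gene lists written with earlier results of these data known. Of 12 measured genes of the central spindle and cytokinesis, 6 were higher and 0 lower, against 0.853% and 2.29% of all features, with a list median of 0.63. At an unadjusted p under 0.05 10 were higher, against 5.31% of all features. Those called included Prc1, the microtubule bundler that recruits Kif4 (0.65 ± 0.10, limma's adjusted p = 0.022), Cep55 of the midbody (0.76 ± 0.10), Aurkb (0.80 ± 0.10) and Cdca8 of the passenger complex (0.62 ± 0.10). Racgap1, the partner of Kif23 in centralspindlin, gave 0.44 ± 0.10 without passing (limma's adjusted p = 0.098). Incenp (0.29), Birc5 (0.11) and Rhoa (-0.14) did not pass either, each with saturated channels. Of 15 spindle assembly genes 11 were higher and 0 lower, against the same shares (list median 0.65), with Ska1 (0.98 ± 0.10), Ckap2l (0.74 ± 0.10), Nuf2 (0.72 ± 0.10) and Nusap1 (0.77 ± 0.11) at the smallest p. Tpx2, an activator of Aurora A that also binds Kif11 and Kif15, gave 0.68 ± 0.14 (limma's adjusted p = 0.058), and Ckap5 gave 0.26 without passing.

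No partner of the transport motors passed, but many of their probes were saturated and could not show a free ratio. Saturation touched 7 of 14 light chains and cargo adaptors, 16 of 19 dynein and dynactin genes, 6 of 11 nuclear positioning genes and 8 of 13 tubulin genes, which leaves 7, 3, 5 and 5 never saturated. Over all features, limma called 0.853% higher and 2.29% lower, and 5.31% were higher and 7.12% lower at an unadjusted p under 0.05. No result about these lists is drawn from counts this small. Of the 14 light chains and cargo adaptors 0 were called by limma and 1 was higher at an unadjusted p under 0.05. That was Mapk8ip1 (0.40 ± 0.11), a scaffold that links cargo to kinesin-1, while Map7d2 gave 0.15. The kinesin light chains Klc2, Klc3 and Klc4 gave -0.03, 0.11 and -0.10. Klc1 and Mapk8ip3 were saturated in 3 GDF8 and 4 untreated channels, so no ratio is given for them. Of 19 genes of dynein and dynactin, the motor that runs the other way, 0 were called (median 0.02), and 2 were higher at an unadjusted p under 0.05, Dync1li1 (0.38 ± 0.11) and Nde1 (0.23 ± 0.09). Dctn4 gave 0.13, and Dync1li2 was saturated in 2 GDF8 and 3 untreated channels. Of 11 genes that position nuclei in muscle fibres 0 were called (0 at an unadjusted p under 0.05 as well), with Syne2 at 0.19, Syne1 at -0.11 and Cdk5rap2 at 0.10; Lmna was saturated in all 8 channels. Of 13 tubulin genes 0 were called (1 higher at an unadjusted p under 0.05, Tubb3 at 0.56 ± 0.12). Tuba1c, Tubb5 and Tuba1a were saturated in all 8 channels, so no ratio is given for them. The counts under the methods' t-test were not computed for these lists.

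Some markers of proliferating and of differentiated cells differed in the same arrays. Of 5 markers of proliferating myoblasts Ccnb1 (0.95) and Top2a (0.75) were higher, while Mki67 (0.34), Pax7 (0.19) and Myf5 (0.03) did not pass. The summed intensity of the 5 ranged from 63919 to 79140 in GDF8 channels, against 44218 to 65659 in untreated channels, most of it from Mki67, which was saturated in 2 GDF8 channels and 1 untreated channel. Of 8 skeletal muscle markers Actn2 (-1.39), Mef2c (-0.95) and Ckm (-0.93) were lower, and the other 5 did not pass. The sum of the 8 ran from 323612 to 388934 in GDF8 channels, against 342393 to 437905 in untreated channels, but it rests mostly on Des, Myog, Myh3, Acta1 and Tnnt3, each saturated in 2 or 3 GDF8 channels and 4 untreated channels. The part of these markers' cells in the kinesin ratios was not tested.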

How the data were processed

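Per the file headers, the deposited scanner files hold, for each spot, the intensity of both channels with its local background, and a log10 ratio (red over green), written by Agilent Feature Extraction 9.1.1.1. The authors' deposited table holds log2 ratios; at a tolerance of 0.001 it equalled the ratio of the processed signals (GDF8 over untreated) for 100% of 40929 single-spot probes, uncentred, with medians of 0.14, -0.09, -0.11 and 0.09. Per the series' design text, the authors used GeneSpring, an unpaired test and a fold over 1.6. The methods' t-test here is an unpaired test of that kind at p under 0.05, run on single-channel values after loess and Aquantile. It used the filter and brightest probes described below, not GeneSpring values, and ignores the pairing of channels within an array.

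Mean signals were corrected by normexp (offset 50) and loess in limma 3.58.1 under R 4.3.3, with controls at weight 0 and outlier spots left out. A probe passed if well above background on all 4 arrays of a group (26937 probes, 54 of 71 kinesin probes, 1 of which lacked values), and the brightest probe stood for a gene (17594 features). The model held a GDF8 effect and a dye effect, with Benjamini-Hochberg adjustment across the features. Intensities printed are after Aquantile. A simulation of this comparison held 17594 features. Recovery was 55 of 67 (82.1%) at a true change of 1.5-fold, 67 of 67 at 2-fold and 66 of 66 at 3-fold. Beside these true calls stood 19 false ones, from 17394 features simulated without a change. These rates hold for simulated data only. Whether the real arrays reach them was not tested, and the real counts depended on single arrays, as given above. An exact sign-change test over 4 arrays cannot go below p = 0.125.

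Kinesin probes were named through RefSeq by accession (53) or symbol (18). Members, lists and motifs were chosen with earlier results of these data known. Values by array were to be given for the mitotic kinesins, for others past the threshold, for the 10 others with the smallest p, and for up to 4 members of each other list. Further genes were named for their role as partners or for completeness. All arrays lay on 1 slide, and precision is limited by their number.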

Additional observations from a re-analysis of the deposited data

Results flagged for a closer look

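Of 21 kinesin results searched for an array far from the other 3, 2 stood out, where chance flags about 1 in 20. Kif4 gave 0.13 on replicate 3, against 0.84 to 0.93 on the others. Kif3c gave -0.0094 on replicate 3, against 0.10 to 0.11 on the others, a gap somewhat larger than its standard error of 0.09. Its 95% interval ran from -0.13 to 0.29.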

How the results depend on the processing

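The median of the mitotic and of the transport kinesins moved by less than the spread between arrays under every alternative run, and 0 transport kinesins were called under any of them in limma or by the methods' t-test. The mitotic count of 6 became 3 with single channels and no replicate block, 3 by the methods' t-test (2 after Benjamini-Hochberg) and 1 with replicates 1 and 2 and replicates 3 and 4 averaged. It was 4 with processed signals, with the authors' deposited table, without the filter on dim probes and without the dye term. It was 5 with a normexp offset of 10, after Aquantile and with all 8 channels required. With median centring it was 7, and with every probe on its own 8. The count over all kinesins, 7, became 4 with processed signals, without the filter on dim probes, without the dye term and with the authors' deposited log2 table, 3 with no replicate block and by the methods' t-test, 2 after Benjamini-Hochberg and 1 with averaged arrays. Over all features, 150 higher became 65 without the dye term, 57 with no replicate block, 69 and 24 by the methods' t-test, 97 with the deposited table and 23 with averaged arrays, and 403 lower became 258 with no replicate block, 88 by the adjusted t-test and 172 with averaged arrays. Leaving out 1 array gave 0 to 7 mitotic and 0 to 7 kinesins higher in all, and 8 to 109 features higher and 76 to 324 lower. Why calls were lost was not tested. Of 18 alternatives, Kif22 was called in 14, Kif11, Kif2c and Kif14 in 13 each, Kif15 and Kif26b in 7 each, Kif4 in 5 and Kif23 in 3. The ratio of Kif5b by its saturated probe was -0.029 to 0.24 with 1 array left out, turning negative without replicate 4. The slide could not be fitted as a block. Saturation limits the ratios of Kif20a and Kif5b, and the probes standing for Kif1b and Kif1c were each saturated in 1 GDF8 channel.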
